A study of Homo sapiens with 16 samples.

Results

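The insulin-like growth factor (IGF) axis was described in LNCaP, an androgen-responsive line grown from human prostate cancer, through 9 genes. They were the binding protein genes IGFBP2, IGFBP3, IGFBP4, IGFBP5 and IGFBP6, the receptor genes IGF1R and INSR, and the adaptor genes IRS1 and IRS2. These are 9 of the 62754 genes in the count table. Of the 9, 7 passed the filter on low counts, which left 18549 genes for testing, and IGFBP4 and IGFBP6 did not pass it. The genes were listed as a family, and IGFBP3 was chosen by its rise in p53 KO cells. Its values for p53 KO against WT are therefore a description with no test, and the rest of the list was drawn up with results of these data known.

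RNA was sequenced from 16 samples, 4 in each of 4 groups. The groups were WT cells with vehicle (DMSO), WT cells with GCN2iB, p53 KO cells with vehicle and p53 KO cells with GCN2iB. GCN2iB, used at 5 µM, inhibits GCN2, the kinase that senses uncharged tRNA when amino acids run short. All 4 groups were grown in phenol-free RPMI medium with serum, plated at 350000 cells and treated for 48 h. The p53 KO cells were made by CRISPR, and the labels do not say whether they are 1 clone or a pool, so any other property of the edited cells cannot be told apart from the loss of p53. Nothing in the labels says that the 4 libraries of a group came from separate cultures, so p-values here reflect only how far these libraries spread, which may be technical.

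IGF1 and IGF2 are secreted growth factors that signal through the receptor tyrosine kinase IGF1R, and insulin signals through its close relative INSR. Activated receptors phosphorylate the adaptors IRS1 and IRS2, which recruit PI3K and so switch on AKT and mTOR signalling. The IGF binding proteins hold the ligands outside the cell, where they can carry them, store them or keep them from the receptor, and proteases set the ligands free again. In prostate cells IGFBP3 is known as a growth-restraining binding protein, and it is known as a gene that p53 can induce.

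Total counts per library ran from 17418072 to 39915685. Levels are given as CPM, the reads of a gene scaled to a fixed library total, on totals scaled by the TMM method, as mean ± SD over 4 libraries. Differences are log2 ratios ± SE from 1 edgeR quasi-likelihood fit over all 16 libraries, with Benjamini-Hochberg adjustment over the 18549 genes tested and a threshold of 0.05. CDKN1A, the cell cycle inhibitor gene that p53 induces, was lower in p53 KO than in WT cells by a log2 ratio of -2.87 under vehicle and -3.43 under GCN2iB. ATF4, whose pathway GCN2 feeds, fell by 1.22 on the log2 scale with GCN2iB in WT cells and by 0.83 in p53 KO cells. The 9 luminal prostate markers summed to 5348 to 6807 CPM per library. Immune markers summed to at most 0.279 CPM and basal markers to at most 4.61 CPM, most of it KRT14. The basal sum was 2.12 to 2.96 CPM in WT and 3.55 to 4.61 CPM in p53 KO libraries, with KRT5 at or near 0. Fibroblast and stromal markers, most of it COL1A1 with DCN and LUM at most 0.288 and 0.406 CPM, summed to 22.9 to 27.9 CPM in WT vehicle, 20.3 to 24.3 in WT GCN2iB, 19.9 to 22.7 in p53 KO vehicle and 17.3 to 19.6 CPM in p53 KO GCN2iB libraries. Neuroendocrine markers, most of them ENO2 and SYP with CHGA at or near 0, summed to 26.8 to 30.8 CPM in WT vehicle and 31.4 to 36.7 CPM in WT GCN2iB libraries, and to 22.2 to 26.9 and 29.2 to 35.1 CPM in p53 KO libraries. Of the endothelial markers, VWF was present while PECAM1 and CDH5 were at or near 0, and the list summed to 17.6 to 23.0 CPM in WT and 8.84 to 12.9 CPM in p53 KO libraries. The part of these marker differences in the results below was not tested.

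One library stood apart. The library labelled WT GCN2iB replicate 4 lay part of the way towards the p53 KO libraries for several genes. CDKN1A stood at 375 CPM there, while the other 3 libraries of its group had 483 to 501 CPM, so it had moved 26.4% of the way from their mean to that of the p53 KO GCN2iB group. The same share was 24.3% for IGFBP3 and 13.9% for IGFBP5. IGFBP2, at 151 CPM, lay inside the 150 to 163 CPM of the other 3 libraries, and IGF1R, at 41.9 CPM against 47.3 to 48.9 CPM, lay on the side away from the p53 KO mean of 52.6 CPM. Values of the listed genes for comparisons with this group are given with and without the library, and its origin was not tested. The 4 libraries numbered 4 also held fewer reads of long transcripts. Over 1062 genes with a transcript of at least 8 kb, their median log2 ratio to the other 3 libraries of the group was -0.284 to -0.064, against -0.006 to 0.162 for the libraries numbered 1 to 3. IGF1R, INSR, IRS1 and IRS2 all have transcripts of that length.

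Per kilobase of exon, IGFBP2 made up most of the binding protein transcripts in WT cells, and IGFBP3 came close to it in p53 KO cells. Their order in p53 KO cells depends on the gene length used, as given below. IGFBP3 was 6.27-fold higher under vehicle and IGFBP5 rose 3.35-fold, while IGFBP2 fell to 0.757 of its WT level. IGFBP6 was near the limit of detection in WT cells and somewhat above it in p53 KO cells, and IGFBP4 gave only a few reads in any group. The promoters of IGFBP3 and IGFBP5, the genes with the largest genotype differences under vehicle among the binding protein genes that passed the filter, are shown here as the 250 bases before the RefSeq start on GRCh38.p14, 5′ to 3′ along the gene. Both genes lie on the minus strand, IGFBP3 at chr7:45921273-45921522 and IGFBP5 at chr2:216695550-216695799 in these windows. Capitals mark the letters TATANA on either strand, where N is any base.
IGFBP3 promoter: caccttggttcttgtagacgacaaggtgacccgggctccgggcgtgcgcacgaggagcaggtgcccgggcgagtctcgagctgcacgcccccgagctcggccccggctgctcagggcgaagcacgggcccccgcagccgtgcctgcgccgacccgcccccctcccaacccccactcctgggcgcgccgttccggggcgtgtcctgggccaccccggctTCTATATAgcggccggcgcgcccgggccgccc
IGFBP5 promoter: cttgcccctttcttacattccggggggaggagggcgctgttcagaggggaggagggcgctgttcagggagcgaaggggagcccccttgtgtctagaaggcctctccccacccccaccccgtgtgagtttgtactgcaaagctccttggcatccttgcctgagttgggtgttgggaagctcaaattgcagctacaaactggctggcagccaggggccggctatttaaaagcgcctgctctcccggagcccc
In the IGFBP3 window 2 overlapping TATANA matches begin 32 and 30 bases before the start, and the IGFBP5 window has 0. Such a match stood in 17.7% of 35116 RefSeq promoter windows of this length. The IGFBP3 window holds 32 CpG dinucleotides, more than 90.5% of those windows, and is 76.0% G and C. The IGFBP5 window holds 8, more than 43.7% of them, and is 61.2% G and C. The p53 half-site, searched on both strands, was in neither window and stood in 5.57% of all windows. It was also absent from all other windows of the 9 genes except 1 of the 3 for IGFBP2. All 9 genes had at least 1 RefSeq promoter, with 11 windows in all. A letter match is a description of the window and does not locate a binding site. The lack of a match does not show that a site or a similar sequence is absent, inside or outside the window.

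IGFBP3 (ENSG00000146674, chromosome 7, 45912245 to 45921874, minus strand, protein coding) encodes the main IGF carrier of blood plasma. Gene positions here and below are those of GENCODE release 29 on GRCh38, where the outermost start of IGFBP3 lies upstream of the RefSeq start used for its window. In WT vehicle libraries its level was 11.5, 12.4, 13.1 and 12.8 CPM, and in p53 KO vehicle libraries 74.3, 77.8, 77.7 and 84.0 CPM. With GCN2iB the WT libraries had 14.5, 12.6, 13.5 and 30.1 CPM and the p53 KO libraries 80.0, 81.1, 81.8 and 83.6 CPM. No WT library reached the lowest p53 KO library in either treatment, and WT GCN2iB replicate 4 lay above the other 7 WT libraries. The log2 ratio of p53 KO to WT was 2.65 ± 0.21 under vehicle and 2.20 ± 0.20 under GCN2iB, with no test since IGFBP3 was selected on this difference. Without WT GCN2iB replicate 4 the ratio under GCN2iB was 2.57, or 5.93-fold instead of 4.58-fold.

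GCN2iB left the IGFBP3 transcript without a detected change in either genotype. The log2 ratio to vehicle was 0.51 ± 0.21 in WT cells (edgeR adjusted p = 0.0974) and 0.06 ± 0.19 in p53 KO cells (edgeR adjusted p = 0.87). The WT value rested on 1 library. Without WT GCN2iB replicate 4 it was 0.13 ± 0.08 (edgeR adjusted p = 0.248), and over all 25 alternatives the adjusted p ran from 0.0299 to 0.273. It passed the threshold in 3 of them, those requiring a mean of at least 50 counts or leaving out WT GCN2iB replicate 2 or replicate 3. All 3 keep replicate 4.

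IGFBP5 (ENSG00000115461, chromosome 2, 216672105 to 216695525, minus strand, protein coding) encodes a binding protein that also attaches to extracellular matrix. Its level was low, at 0.556, 0.707, 0.716 and 0.83 CPM in the WT vehicle libraries. The p53 KO vehicle libraries had 2.94, 2.17, 2.25 and 2.24 CPM. With GCN2iB the values were 0.651, 0.470, 0.449 and 0.806 CPM in WT and 2.96, 2.91, 2.59 and 1.75 CPM in p53 KO cells. Every p53 KO library was above every WT library. IGFBP5 rose in p53 KO cells by a log2 ratio of 1.74 ± 0.21 under vehicle (edgeR adjusted p = 1.59e-06) and 2.07 ± 0.22 under GCN2iB (edgeR adjusted p = 2.12e-07). Its calls held in all 25 alternatives of each comparison, with adjusted p of at most 2.01e-05 and 3e-05. GCN2iB against vehicle gave -0.24 ± 0.25 in WT (edgeR adjusted p = 0.526) and 0.08 ± 0.18 in p53 KO cells (edgeR adjusted p = 0.793). The increase by genotype rests on 88 and 80 reads summed over the 4 WT libraries of each treatment and on 365 and 303 over the p53 KO libraries. Without WT GCN2iB replicate 4 the genotype ratio under GCN2iB was 2.25 and the GCN2iB ratio in WT cells -0.43 (edgeR adjusted p = 4.04e-07 and 0.309).

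IGFBP2 (ENSG00000115457, chromosome 2, 216632828 to 216664436, plus strand, protein coding) encodes a binding protein made by many epithelial tumours. It lies 7668 bases from IGFBP5, with both genes transcribed towards each other. The WT vehicle libraries had 105, 129, 127 and 152 CPM and the p53 KO vehicle libraries 81.3, 96.1, 95.3 and 117 CPM. With GCN2iB, WT libraries had 150, 163, 153 and 151 CPM and p53 KO libraries 104, 100, 94.5 and 137 CPM. The vehicle groups overlapped, since the lowest WT library lay below the highest p53 KO library, while the GCN2iB groups did not. IGFBP2 fell in p53 KO cells by a log2 ratio of -0.40 ± 0.12 under vehicle (edgeR adjusted p = 0.0206) and -0.50 ± 0.12 under GCN2iB (edgeR adjusted p = 0.00454). The vehicle call was lost without WT vehicle replicate 4 (adjusted p = 0.0671) and without p53 KO vehicle replicate 1 (0.0752), within a range of 8.35e-06 to 0.0752 over the alternatives. The neighbours IGFBP2 and IGFBP5 thus moved in opposite directions between genotypes. GCN2iB against vehicle gave 0.26 ± 0.12 in WT (edgeR adjusted p = 0.113) and 0.16 ± 0.12 in p53 KO cells (edgeR adjusted p = 0.368). The WT value passed the threshold in 6 of 25 alternatives, with an adjusted p from 0.000441 to 0.278. It was 0.29 without WT GCN2iB replicate 4 (edgeR adjusted p = 0.134), and the genotype ratio under GCN2iB was -0.54 (edgeR adjusted p = 0.00661).

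IGFBP6 (ENSG00000167779, chromosome 12, 53097436 to 53102345, plus strand, protein coding), whose protein prefers IGF2, was read 0, 0, 1 and 3 times in the WT vehicle libraries. The p53 KO vehicle libraries held 10, 9, 2 and 10 reads. With GCN2iB the counts were 1, 0, 0 and 4 in WT and 11, 10, 4 and 10 in p53 KO cells. Scaled to depth, the genotypes overlapped under vehicle and were separate under GCN2iB, where the highest WT library, replicate 4, had 0.104 CPM and the lowest p53 KO library 0.230 CPM. That replicate held 4 of the 5 WT reads under GCN2iB. In a fit with no filter on low counts the log2 ratio of p53 KO to WT was 2.54 ± 0.76 under vehicle and 2.82 ± 0.72 under GCN2iB. The WT groups held only 4 and 5 reads of IGFBP6, so these ratios are a description with no test. IGFBP4 (ENSG00000141753, chromosome 17, 40443461 to 40457731, plus strand, protein coding), the binding protein cut by the protease PAPPA, had 0 to 5 reads in every library, and its summed reads were 5 and 11 in the WT groups and 11 and 12 in the p53 KO groups. Neither gene passed the filter, and at this depth changes in IGFBP4 could not be detected.

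**Figure D1:**
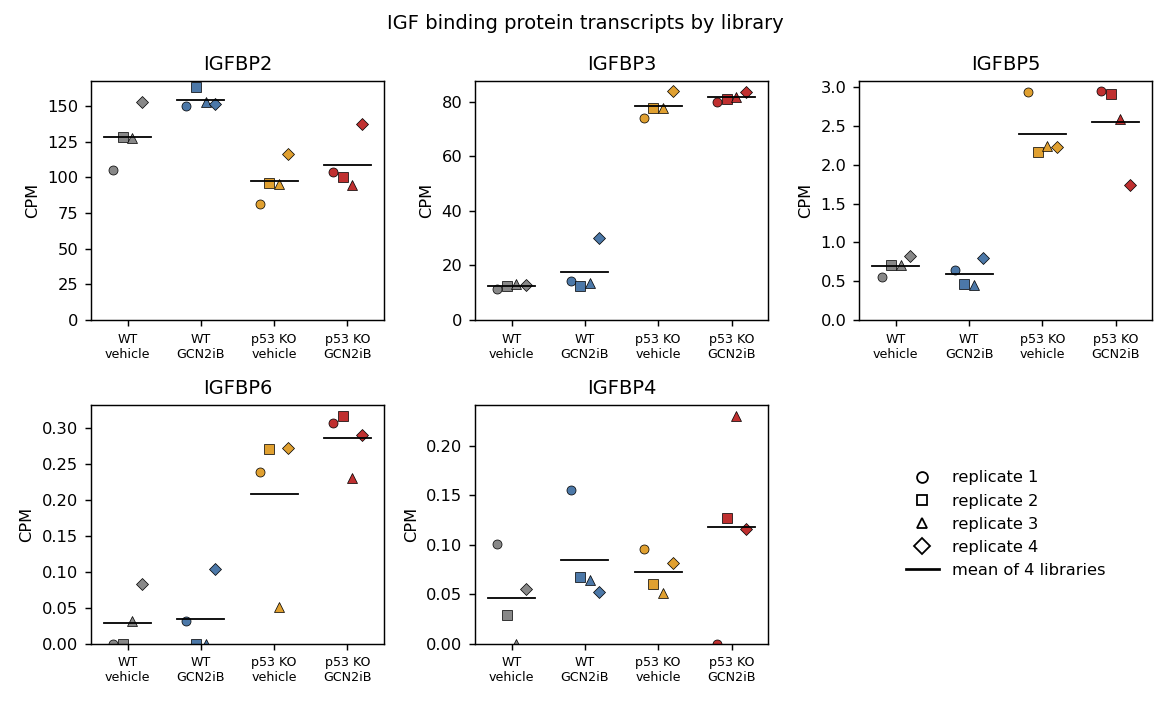
CPM of the 5 listed binding protein genes in each library (marker shape gives the replicate number, bars the mean of 4 libraries, each vertical axis starts at 0). IGFBP3 sat between 74.3 and 84.0 CPM in the p53 KO libraries and between 11.5 and 30.1 CPM in the WT libraries, and IGFBP5 showed the same separation at a far lower level.

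Per kilobase of exon, with all annotated exons of a gene merged, the binding protein transcripts can be set side by side. The merged length is 4.571 kb for IGFBP3 and 4.767 kb for IGFBP2, while their longest transcripts have 2.412 and 4.414 kb. Shares and order therefore depend on the length used. Division by the longest transcript would put the mean of IGFBP3 above that of IGFBP2 in the p53 KO groups. IGFBP2 made up 90.3% ± 0.902 of the summed CPM per kilobase of IGFBP1 to IGFBP6 in WT vehicle cells and 53.3% ± 2.52 in p53 KO vehicle cells (SD, n = 4). IGFBP3 made up 9.25% ± 0.939 and 45.2% ± 2.23. With GCN2iB the IGFBP3 share was 10.5% ± 4.44 in WT and 43.4% ± 3.55 in p53 KO cells, and the WT spread came from replicate 4 at 17.1%, the other 3 libraries lying between 7.42% and 9.09%. The summed level of the 6 genes was 29.8 ± 4.22 CPM per kilobase in WT vehicle and 38.1 ± 3.91 in p53 KO vehicle cells, with overlapping ranges. In bulk RNA a difference in the share of cells that express a gene and a difference in RNA per cell cannot be told apart. IGFBP1, which neighbours IGFBP3 and encodes the binding protein that insulin represses in liver, had 0 reads in all 8 WT libraries, which allows up to 0.0245 CPM over the WT vehicle and 0.0222 CPM over the WT GCN2iB group. In the p53 KO groups 2 and 1 reads were found in all.

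Neither of the nearest tested genes with a symbol on the sides of IGFBP3 was called higher in p53 KO cells. ADCY1, an adenylyl cyclase gene 189129 bases away, was lower in p53 KO cells by a log2 ratio of -0.55 ± 0.10 under vehicle (edgeR adjusted p = 0.000278) and -0.49 ± 0.10 under GCN2iB (edgeR adjusted p = 0.00102). TNS3, a tensin gene 1353280 bases away on the other side, gave -0.01 ± 0.12 under vehicle (edgeR adjusted p = 0.98) and -0.27 ± 0.13 under GCN2iB (edgeR adjusted p = 0.125).

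Under vehicle IGF1R was higher and INSR lower in p53 KO than in WT cells. GCN2iB lowered both in WT cells and IGF1R in p53 KO cells, and the other receptor comparisons did not pass the threshold. IGF1R (ENSG00000140443, chromosome 15, 98648539 to 98964530, plus strand, protein coding) had 61.0, 61.3, 61.2 and 49.2 CPM in WT vehicle and in the p53 KO vehicle libraries 76.4, 79.5, 70.4 and 70.7 CPM. With GCN2iB the values were 48.9, 48.5, 47.3 and 41.9 CPM in WT and 55.3, 55.8, 56.2 and 42.9 CPM in p53 KO libraries. The lowest value of both WT groups and of the p53 KO GCN2iB group was in replicate 4. IGF1R was higher in p53 KO than in WT cells under vehicle, by a log2 ratio of 0.35 ± 0.09 (edgeR adjusted p = 0.00433), with no overlap between the groups. Under GCN2iB the ratio was 0.17 ± 0.09 (edgeR adjusted p = 0.166), and the groups overlapped. Leaving out WT GCN2iB replicate 4 gave 0.10 ± 0.09 (edgeR adjusted p = 0.5).

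IGF1R fell with GCN2iB by 0.32 on the log2 scale in WT cells (SE 0.09, edgeR adjusted p = 0.00954) and by 0.50 in p53 KO cells (SE 0.09, edgeR adjusted p = 0.000252). The treated and untreated libraries did not overlap in either genotype. The WT call was lost without WT GCN2iB replicate 4 (-0.25, adjusted p = 0.0623) and without WT vehicle replicate 3 (adjusted p = 0.0505), within a range of 7.32e-05 to 0.0623 over 25 alternatives. In the 12 libraries numbered 1 to 3 the ratio was -0.32 in WT (edgeR adjusted p = 0.000322) and -0.43 in p53 KO cells (edgeR adjusted p = 1.5e-05). Over the 1214 tested genes with transcripts of at least 8 kb the median log2 ratio was -0.082 in WT and -0.097 in p53 KO cells, against -0.027 and -0.013 over all tested genes. With trends on transcript length and GC content removed from each library, the IGF1R ratios were -0.26 (edgeR adjusted p = 0.000181) and -0.39 (edgeR adjusted p = 1.04e-06). In the same fit IGF1R was higher in p53 KO cells under GCN2iB as well, by 0.26 (edgeR adjusted p = 0.000202), a comparison that passed the threshold in 4 of 25 alternatives, with adjusted p from 0.000202 to 0.5.

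INSR (ENSG00000171105, chromosome 19, 7112255 to 7294034, minus strand, protein coding) had 39.1, 38.2, 41.1 and 33.6 CPM in WT vehicle and in the p53 KO vehicle libraries 32.3, 32.1, 32.8 and 29.4 CPM. With GCN2iB it had 31.4, 31.3, 30.2 and 29.1 CPM in WT and 28.7, 28.7, 28.5 and 25.7 CPM in p53 KO libraries. Replicate 4 was the lowest library of all 4 groups, and the vehicle groups did not overlap. INSR was lower in p53 KO than in WT cells under vehicle by a log2 ratio of -0.26 ± 0.07 (edgeR adjusted p = 0.00716). Scaling by library totals alone took that call away (adjusted p = 0.0509, the largest of 25 alternatives, of which the smallest was 0.000509). Under GCN2iB the ratio was -0.13 ± 0.07 (edgeR adjusted p = 0.192), although the groups did not overlap. GCN2iB lowered INSR in WT cells by a log2 ratio of -0.32 ± 0.07 (edgeR adjusted p = 0.00167), and this call held in all 25 alternatives, with adjusted p of at most 0.0172. In p53 KO cells the ratio was -0.18 ± 0.07 (edgeR adjusted p = 0.0661), which passed the threshold in 5 of 25 alternatives, with adjusted p from 0.0144 to 0.202. With length and GC trends removed, INSR gave -0.24 for GCN2iB in WT (edgeR adjusted p = 0.000278) and -0.08 in p53 KO cells (0.202), and its genotype ratio was -0.22 under vehicle (0.000541) and -0.07 under GCN2iB (0.31). Without WT GCN2iB replicate 4 the ratio for GCN2iB in WT cells was -0.28 (edgeR adjusted p = 0.0134) and the genotype ratio under GCN2iB -0.17 (0.112).

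The balance of the receptor transcripts differed between the genotypes. The ratio of IGF1R to INSR in CPM per kilobase was 1.15 ± 0.0482 in WT vehicle and 1.76 ± 0.106 in p53 KO vehicle cells (SD, n = 4). With GCN2iB it was 1.15 ± 0.0446 in WT and 1.41 ± 0.106 in p53 KO cells. Every p53 KO library, from 1.25 upwards, was above every WT library, of which the highest was 1.20. WT GCN2iB replicate 4 had 1.08 and the other 3 libraries of its group 1.16 to 1.17. In p53 KO cells the GCN2iB libraries, at most 1.48, were all below the vehicle libraries, at least 1.61. This ratio is given as a description, with no test.

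**Figure D2:**
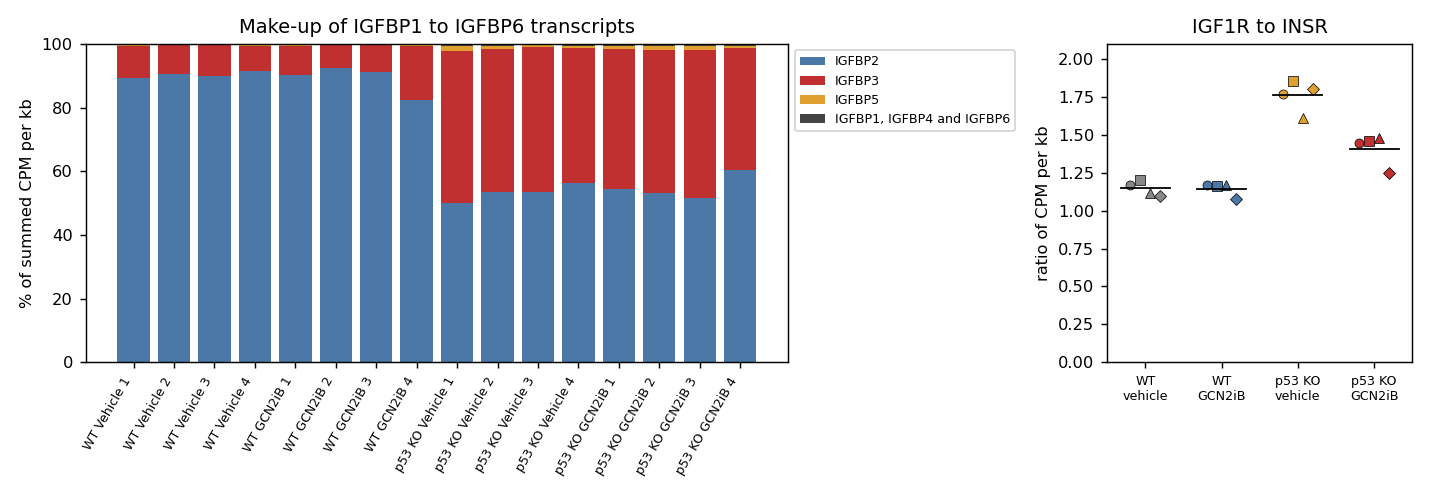
Left, the share of each gene in the summed CPM per kilobase of IGFBP1 to IGFBP6 in each of the 16 libraries, in percent. Right, the ratio of IGF1R to INSR in CPM per kilobase for each library (bars, mean of 4). IGFBP3 took 38.4% to 47.8% in the p53 KO libraries and at most 17.1% in the WT libraries.

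Of the adaptors, IRS2 differed between the genotypes and IRS1 showed no detected difference. IRS2 (ENSG00000185950, chromosome 13, 109752698 to 109786568, minus strand, protein coding) had 6.22, 6.92, 7.94 and 6.68 CPM in WT vehicle and in the p53 KO vehicle libraries 9.60, 8.86, 9.68 and 9.69 CPM. With GCN2iB it had 7.51, 9.67, 6.77 and 8.29 CPM in WT and 10.7, 9.60, 9.73 and 8.90 CPM in p53 KO libraries. The vehicle groups were separate and the GCN2iB groups overlapped through WT GCN2iB replicate 2. IRS2 rose in p53 KO cells under vehicle by a log2 ratio of 0.44 ± 0.10 (edgeR adjusted p = 0.00329). Under GCN2iB the ratio was 0.27 ± 0.10 (edgeR adjusted p = 0.0585), and it passed the threshold in 4 of 25 alternatives, among them without WT GCN2iB replicate 2 (adjusted p = 0.0222) and without p53 KO GCN2iB replicate 4 (0.0346), within a range of 0.00107 to 0.279. It was 0.26 without WT GCN2iB replicate 4 (edgeR adjusted p = 0.113). GCN2iB against vehicle gave 0.21 ± 0.11 in WT (edgeR adjusted p = 0.156, and 0.231 without that library) and 0.04 ± 0.10 in p53 KO cells (edgeR adjusted p = 0.819).

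IRS1 (ENSG00000169047, chromosome 2, 226731317 to 226799759, minus strand, protein coding) had 16.1, 18.9, 17.8 and 13.7 CPM in WT vehicle and in the p53 KO vehicle libraries 16, 17.6, 17.2 and 17.3 CPM. With GCN2iB it had 16.6, 15.3, 16.1 and 13.1 CPM in WT and 16.5, 15.6, 16.6 and 13.1 CPM in p53 KO libraries. All 4 groups overlapped, and replicate 4 was lowest in 3 of them. The log2 ratio of p53 KO to WT was 0.03 ± 0.10 under vehicle and 0.02 ± 0.10 under GCN2iB (edgeR adjusted p = 0.853 and 0.931). GCN2iB against vehicle gave -0.12 ± 0.10 in WT and -0.14 ± 0.10 in p53 KO cells (edgeR adjusted p = 0.39 and 0.337). IRS1 without WT GCN2iB replicate 4 gave -0.08 for the genotypes under GCN2iB and -0.04 for GCN2iB in WT cells (edgeR adjusted p = 0.653 and 0.838).

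**Figure D3:**
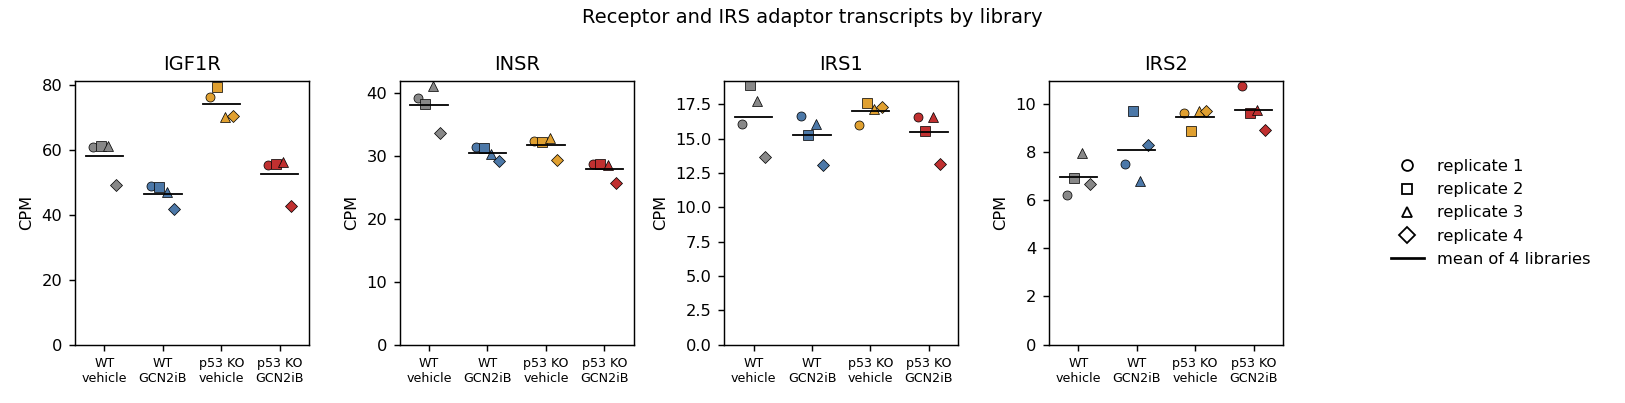
CPM of the receptor genes IGF1R and INSR and the adaptor genes IRS1 and IRS2 in each library (marker shape gives the replicate number, bars the mean of 4 libraries, each vertical axis starts at 0). Replicate 4, drawn as a diamond, is the lowest library of the WT vehicle group for IGF1R at 49.2 CPM, INSR and IRS1.

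Counted together, 5 of the 6 tested genes other than IGFBP3 passed the threshold for p53 KO against WT under vehicle, where 21.7% of all tested genes did (9.63% higher, 12.1% lower). These were IGFBP5, IGF1R and IRS2, which were higher, and IGFBP2 and INSR, which were lower. Under GCN2iB 2 of the 6 passed, IGFBP5 higher and IGFBP2 lower, where 23.9% of all tested genes did (12.7% higher, 11.2% lower). The genes were listed with these comparisons known, so nothing is read from either share. For GCN2iB against vehicle 2 of the 7 tested genes passed in WT cells, IGF1R and INSR, both lower, against 25.2% of all tested genes (11.6% higher, 13.6% lower). In p53 KO cells 1 of the 7 passed, IGF1R, against 20.1% (11.4% higher, 8.71% lower). Neither count stands out from its background. All 4 comparisons share groups with one another, so their values are not independent.

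The direction of calls over all genes depended on the scaling. With library totals alone, 60.7% of the calls for p53 KO against WT under vehicle were higher, against 44.4% with TMM, and 34.4% of the calls for GCN2iB against vehicle in p53 KO cells, against 56.7%. The directions given for IGFBP2, IGFBP5, IGF1R and INSR were the same under TMM, DESeq2 size factors and library totals.

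No difference between the genotypes in the response to GCN2iB was detected for a listed gene. The interaction, the response in p53 KO cells minus that in WT cells, passed for 0 of the 6 tested genes other than IGFBP3, with edgeR adjusted p from 0.682 to 0.982. Over all tested genes it passed for 1 of 18549, or 0.00539%, with 1754 at an unadjusted p under 0.05. DESeq2 called 0 of the listed genes and 38 genes in all. IGF1R gave -0.18 ± 0.12 and INSR 0.13 ± 0.10. For IGFBP3, given with no test, the difference was -0.45 ± 0.29 with all libraries and -0.07 ± 0.10 without WT GCN2iB replicate 4.

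**Figure D4:**
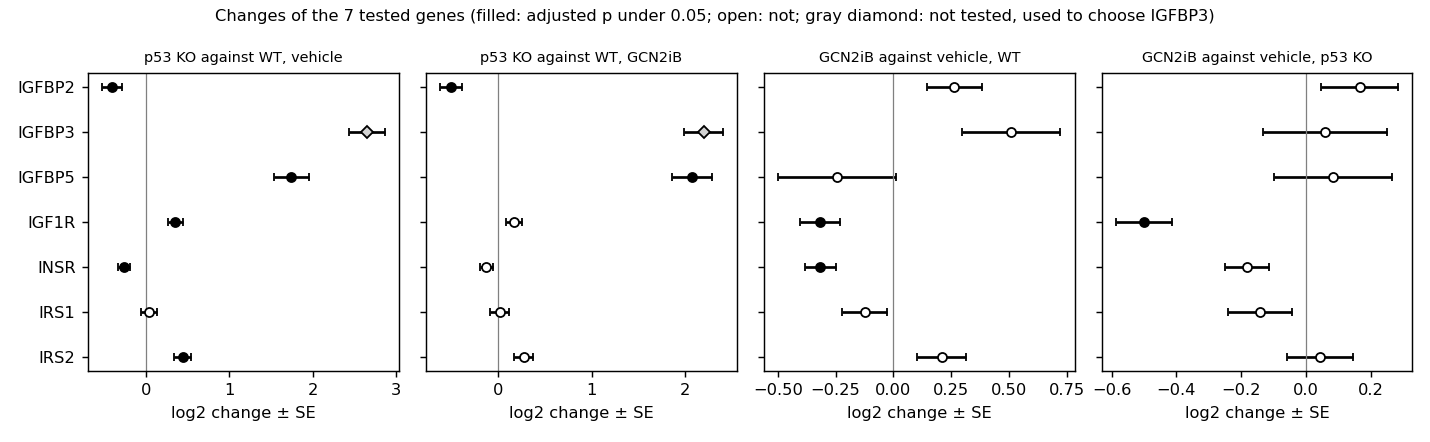
Log2 change ± SE of the 7 tested genes in 4 comparisons (filled points passed an adjusted p of 0.05, open points did not, gray diamonds for IGFBP3 carry no test). Each panel has its own horizontal scale, and IGFBP3 and IGFBP5 show the widest genotype differences, at 2.65 and 1.74 under vehicle.

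Ordered by CPM per kilobase of merged exons, the 9 genes kept IGFBP2 at the top of every group and IGFBP4 and IGFBP6 at the bottom. With the longest transcript as the length, IGFBP3 would lead by its mean in the p53 KO groups. It would also stand above IGF1R and INSR in WT vehicle cells. The order below holds for merged exons only. In WT vehicle cells the order was IGFBP2 at 26.9, IGF1R at 4.17, INSR at 3.64, IGFBP3 at 2.73, IRS1 at 1.67, IRS2 at 0.853 and IGFBP5 at 0.109 CPM per kilobase. IGF1R and INSR overlapped there, as did IGFBP6 and IGFBP4, and the other neighbours in the order did not. In p53 KO vehicle cells IGFBP3 stood second at 17.2, and its range overlapped that of IGFBP2 at 20.4. IGF1R followed at 5.33, INSR at 3.03, IRS1 at 1.71, IRS2 at 1.16 and IGFBP5 at 0.372, with no overlap between these. In WT GCN2iB cells IGFBP3 stood second by its mean of 3.87 only, since its range overlapped that of IGF1R at 3.35, which in turn overlapped INSR at 2.92. In p53 KO GCN2iB cells the order was that of p53 KO vehicle cells, and only there did IGFBP2, at 22.9, and IGFBP3, at 17.9, have separate ranges among the p53 KO groups.

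The ligand genes were close to silent in LNCaP cells. IGF1 had 1.21 ± 0.276 CPM in WT cells under vehicle and 1.39 ± 0.136 CPM in p53 KO cells, and IGF2 had 0.244 ± 0.0682 and 0.260 ± 0.0596 CPM. INS, the insulin gene, had 0 reads in all 16 libraries. Neither IGF1 nor IGF2 passed the threshold in any comparison. The scavenger receptor gene IGF2R, whose product clears IGF2, was far more abundant than the signalling receptors, at 515 ± 30.4 CPM in WT vehicle cells. IGF2R fell with GCN2iB by 0.24 on the log2 scale in WT cells (SE 0.07, edgeR adjusted p = 0.0149) and by 0.41 in p53 KO cells (SE 0.07, edgeR adjusted p = 0.000285). Its transcript is long too, at 14.0 kb.

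The rest of the pathway was read from 11 lists with 91 genes, of which 78 were tested. For p53 KO against WT under vehicle 11 were higher and 12 lower (29.5% called against 21.7% of all tested genes, median log2 -0.06 against 0.01 over all tested genes). Under GCN2iB 10 were higher and 15 lower (32.1% against 23.9%, median -0.05 against 0.03). Both counts of higher genes include CCN3, which its p53 KO libraries carried through the count filter. No result is read from its calls. For GCN2iB against vehicle 5 were higher and 19 lower in WT cells (30.8% against 25.2%, median -0.11 against -0.03), and 5 higher and 17 lower in p53 KO cells (28.2% against 20.1%, median -0.14 against -0.01). With WT GCN2iB replicate 4 left out, 25 passed for the genotypes under GCN2iB and 17 for GCN2iB in WT cells. The interaction passed for 0 of 78.

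Proteases that cut binding proteins, with their inhibitors, held the most calls by genotype, 5 higher and 2 lower of 11 tested under vehicle, where 9.63% of all tested genes were higher and 12.1% lower. KLK2, the prostate kallikrein that can cut IGFBPs, rose from 356 to 564 CPM in p53 KO cells (log2 0.66 ± 0.07, edgeR adjusted p = 9.3e-08). STC1, a stanniocalcin that inhibits PAPPA, fell from 12.4 to 5.41 CPM (log2 -1.18 ± 0.18, edgeR adjusted p = 0.000108). PAPPA itself had only 9 to 15 reads summed over a group and did not pass the count filter. ADAMTS1, a secreted metalloprotease, rose by 0.32 ± 0.06 (edgeR adjusted p = 0.000155), and HTRA1, a serine protease known to cut IGFBP5, rose from 1.12 to 1.93 CPM (0.82 ± 0.20, edgeR adjusted p = 0.00365). Under GCN2iB 5 were higher and 1 lower, against 12.7% and 11.2% of all tested genes. KLK2 was at 0.58 ± 0.07, HTRA1 at 1.10 ± 0.21, ADAMTS1 at 0.23 ± 0.06 and ADAM28, a membrane protease known to cut IGFBP3, at 1.45 ± 0.33 (edgeR adjusted p from 8.02e-07 to 0.00393). The level of ADAM28 was low, at 0.273 CPM in WT GCN2iB and 0.725 CPM in p53 KO GCN2iB cells, and these groups overlapped.

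With GCN2iB the same list had 6 lower and 0 higher of 11 in WT and 5 lower and 0 higher in p53 KO cells. Over all tested genes 13.6% were lower and 11.6% higher in WT, and 8.71% lower and 11.4% higher in p53 KO cells. STC2, the other stanniocalcin and a known ATF4 target, had the smallest p. It fell from 154 ± 5.26 to 92.9 ± 6.10 CPM in WT cells (log2 -0.73 ± 0.06, edgeR adjusted p = 1.42e-08) and from 182 ± 2.98 to 93.6 ± 6.23 CPM in p53 KO cells (-0.96 ± 0.06, edgeR adjusted p = 1.84e-10). ADAM9 fell by 0.35 on the log2 scale in WT and by 0.25 in p53 KO cells, and ADAMTS1 by 0.20 and 0.29. KLK3, the gene of prostate-specific antigen, fell by 0.22 in WT cells (edgeR adjusted p = 0.01) and by 0.19 in p53 KO cells (edgeR adjusted p = 0.0284). KLK2 fell by 0.22 in WT cells (edgeR adjusted p = 0.0155) and by 0.31 in p53 KO cells (edgeR adjusted p = 0.002).

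Among the other adaptors, 2 of 12 rose and 2 fell in p53 KO relative to WT cells under vehicle, and 1 was higher and 3 lower under GCN2iB. Over all tested genes 9.63% were higher and 12.1% lower under vehicle, and 12.7% and 11.2% under GCN2iB. IRS4, an adaptor that stands in for IRS1 in some cell types, rose from 0.458 to 1.02 CPM under vehicle (log2 1.19 ± 0.29, edgeR adjusted p = 0.00454) and from 0.330 to 1.13 CPM under GCN2iB (1.76 ± 0.31, edgeR adjusted p = 0.000168). GRB10, which binds the receptors and dampens them, fell by 0.35 and 0.52 on the log2 scale, and GAB1, a docking protein, by 0.66 and 0.54. GRB10 fell with GCN2iB as well, by 0.25 in WT cells (edgeR adjusted p = 0.0168) and by 0.42 in p53 KO cells (edgeR adjusted p = 0.000345).

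In the PI3K and AKT list 0 of 14 rose and 3 fell in p53 KO relative to WT cells under vehicle. That is 21.4% called, against 21.7% of all tested genes, so the count does not stand out. PIK3IP1, an inhibitor of PI3K, fell from 19.6 to 8.74 CPM (log2 -1.17 ± 0.09, edgeR adjusted p = 1.71e-09). The regulatory subunit gene PIK3R3 fell by 0.61 and the catalytic subunit gene PIK3CD by 0.33 on the log2 scale. All 3 were lower under GCN2iB too, at -1.06, -0.42 and -0.27. In that comparison 1 of the 14 was higher and 4 were lower, or 35.7% called against 23.9% of all tested genes. Of 11 TSC and mTOR genes 0 passed for either genotype comparison with edgeR. Over all tested genes 21.7% passed under vehicle and 23.9% under GCN2iB. With GCN2iB in WT cells PIK3CB fell by 0.33, PIK3CA by 0.40 and DEPTOR, an mTOR inhibitor, by 0.46 on the log2 scale. In p53 KO cells PIK3CB fell by 0.26 and PIK3CA by 0.43 (edgeR adjusted p = 0.0174 and 0.0062), while DEPTOR did not pass. AKT1S1 rose by 0.23 in WT and 0.26 in p53 KO cells.

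Among the brakes on the receptors and IRS proteins, GCN2iB lowered 3 of 7 in each genotype and raised 0, against 13.6% of all tested genes lowered in WT and 8.71% in p53 KO cells. TRIB3, a pseudokinase that binds AKT and a known ATF4 target, fell from 124 ± 11.9 to 71.5 ± 3.87 CPM in WT cells (log2 -0.79 ± 0.08, edgeR adjusted p = 2.02e-07) and from 146 ± 14.7 to 90.4 ± 6.49 CPM in p53 KO cells (-0.69 ± 0.08, edgeR adjusted p = 1.66e-06). SOCS2, a suppressor of growth hormone signalling, fell by 0.61 and 0.48. CUL7, part of a ubiquitin ligase for IRS1, fell by 0.22 and 0.23 with GCN2iB, and its log2 ratio of p53 KO to WT was -0.38 under vehicle and -0.39 under GCN2iB (edgeR adjusted p = 0.00017 and 0.000179).

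The transcription factor genes FOXO1, FOXO3, FOXO4 and FOXO6 were higher in 0 of 4 and lower in 1 of 4 tests for p53 KO under vehicle, FOXO3 at -0.23 ± 0.08 (edgeR adjusted p = 0.0343). Under GCN2iB FOXO4 at -0.51 ± 0.08 and FOXO3 at -0.35 ± 0.08 were lower. For p53 KO against WT, 9.63% of all tested genes were higher and 12.1% lower under vehicle, and 12.7% and 11.2% under GCN2iB. Of 10 tested FOXO target genes 1 rose and 3 fell in p53 KO relative to WT cells under vehicle, with ERBB3 at -0.39, TXNIP at -0.33 and CCNG2 at -0.35. GCN2iB raised 3 and lowered 2 of these target genes in WT cells, where 11.6% of all tested genes were higher and 13.6% lower. CITED2 rose by 0.46 and 0.40 on the log2 scale in WT and p53 KO cells, and BCL6 by 0.32 and 0.31, while the receptor gene ERBB3 fell by 0.40 and 0.31. In the CCN family, matrix proteins with a domain resembling that of the IGFBPs, CCN3 lay higher in p53 KO cells at means under 1 CPM. It had 31 and 23 reads summed over the WT vehicle and WT GCN2iB libraries. The p53 KO libraries, with 96 and 111 reads, carried it through the count filter. Its log2 ratios of 1.31 ± 0.36 under vehicle and 2.42 ± 0.37 under GCN2iB are thus a description with no test. CCN1 rose with GCN2iB by 0.47 in both genotypes.

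**Figure D5:**
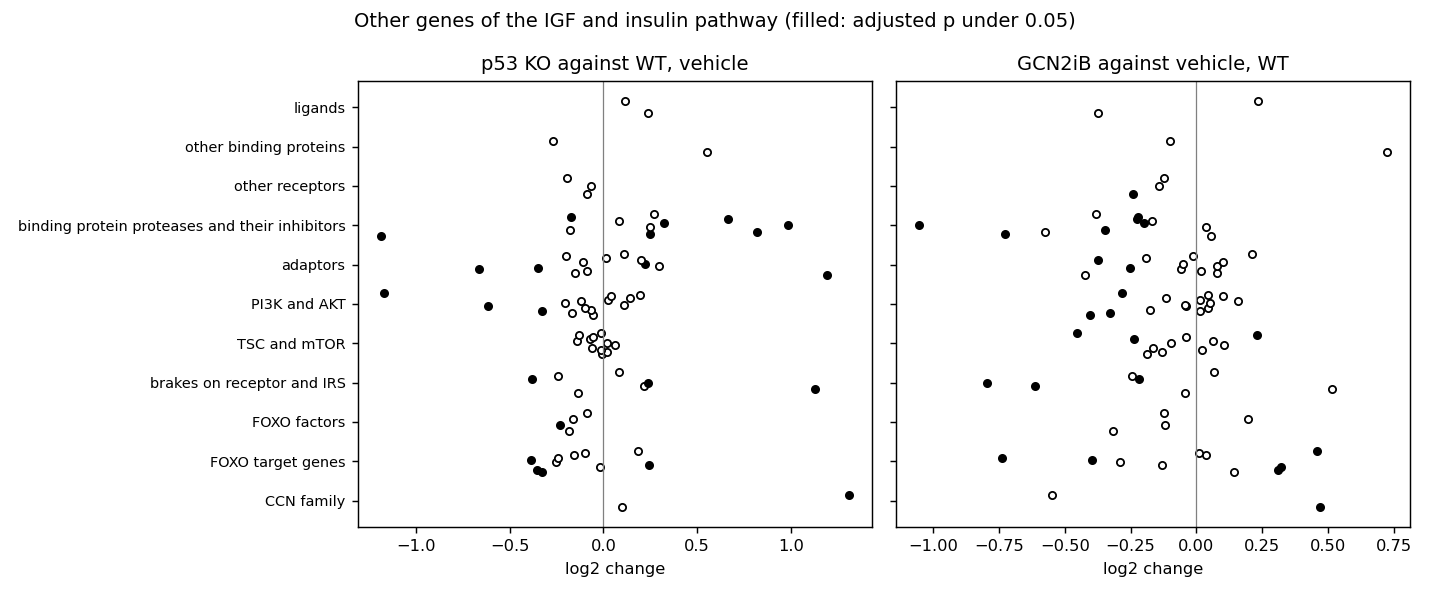
Log2 change of the 78 tested pathway genes by list, for p53 KO against WT under vehicle (left) and GCN2iB against vehicle in WT cells (right). Filled points passed an adjusted p of 0.05. The filled point of the CCN family on the left is CCN3, from which no test is read. All 11 TSC and mTOR genes on the left are open, and the 6 filled protease and inhibitor genes on the right all lie below 0. Over all tested genes 21.7% passed in the left comparison and 25.2% in the right.

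Finally, the genes whose pattern over the 16 libraries came nearest to each listed gene were found by the root mean square difference in log2 CPM, each gene centred on its mean, among 12608 genes with a symbol and a mean of at least 50 counts. Nearest to IGFBP3 were CCL5 at 0.183, FCHO1 at 0.239, EPHA3 at 0.256, CXCL10 at 0.289 and IFIT1 at 0.297, where IGFBP3 itself spread by 1.25 around its mean. CCL5 and CXCL10 encode chemokines, FCHO1 an endocytic protein, EPHA3 an ephrin receptor and IFIT1 an interferon-induced protein. Their log2 ratios of p53 KO to WT under vehicle ran from 1.90 to 3.37. In WT GCN2iB replicate 4 CCL5 was at 5.38 CPM against a group mean of 2.84 CPM, and IFIT1 at 30.1 against 19.3 CPM. These genes were picked for their likeness to IGFBP3 over these same libraries. Their genotype ratios and their values in that library are therefore no separate result. The nearest gene to IGFBP5 was KCND2 at 0.148, to IGFBP2 B4GALNT4 at 0.0602, to IGF1R CREB3L2 at 0.0768 and to INSR RBM12 at 0.0477. For IRS1 it was IQSEC1 at 0.0654 and for IRS2 GPR161 at 0.109. The second nearest were NLGN4X, NOC4L, SLC41A1, ARPIN, GON4L and B3GALNT2 in the same order. The 16 libraries are shared by all genes in this search, so the distances are a description with no test.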

How the data were processed

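The authors deposited 1 table of raw read counts per gene for the 16 samples, with no normalization, per the file headers and its whole-number values. Listed in the submitters' processing notes are Trim Galore, HISAT2, featureCounts, DESeq2 and GRCh38. Which versions, annotation and strand setting were used is not given in the sources used here, so reads of overlapping or antisense genes cannot be told apart. All 16 count columns carried a group and number that matched a sample, and 0 were left over.

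From the counts, symbols were matched for 42343 of 62754 identifiers, and positions and exon lengths were taken from GENCODE release 29. The filterByExpr rule of edgeR 4.0.16 in R 4.3.3 (minimum count 10, minimum total 15) kept 18549 genes, with 99.906% or more of each library's counts. Counts were scaled by TMM, a robust quasi-likelihood model with 1 term per group was fitted, tests were two-sided, and the analysis was tested on simulated data. DESeq2 1.42.0 served alternatives, edgeR ran on limma 3.58.1, and pandas 2.3.3 and matplotlib 3.10.9 (Python 3.11.15) made tables and plots. Promoter windows came from RefSeq.

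The members and lists were chosen with earlier results of these data known. Named were the 9 listed genes, up to 4 called genes of each list with the smallest adjusted p, the 5 genes nearest in pattern to IGFBP3 and the 2 nearest to each other listed gene, the neighbours of IGFBP3, and CDKN1A, MDM2 and ATF4 as checks of the labels. MDM2, a p53 target, was lower in p53 KO cells by a log2 ratio of -1.00 under vehicle. Some genes covered by this rule are not reported here. Alternatives were other scalings, filters and tests, a replicate block, and leaving out each library. Leaving out all libraries numbered 4 and removing length and GC trends were chosen after seeing the data.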

Additional observations from a re-analysis of the deposited data

Results flagged for a closer look

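In each group of 4 libraries the highest or lowest library was compared with the rest, and 6 of 28 groups had a library whose gap to its nearest neighbour relative to the group's range was above Dixon's critical value. Chance gives about 1 in 20 such groups. The 28 groups are 7 genes over the same libraries and are not independent, so no excess over chance is read from the count. IGFBP3 was at 30.1 CPM in WT GCN2iB replicate 4, against 12.6 to 14.5 CPM in the other 3 libraries. IGFBP5 was at 2.94 CPM in p53 KO vehicle replicate 1, against 2.17 to 2.25 CPM. In replicate 4, IGF1R was at 49.2 CPM in the WT vehicle group against 61.0 to 61.3 CPM, and at 42.9 CPM in the p53 KO GCN2iB group against 55.3 to 56.2 CPM. INSR was at 25.7 CPM in that same p53 KO GCN2iB library, against 28.5 to 28.7 CPM. IRS2 was at 8.86 CPM in p53 KO vehicle replicate 2, against 9.60 to 9.69 CPM. Thus 3 of the 6 were low values of genes with long transcripts in libraries numbered 4, and the part of transcript length in them was not tested.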

How the results depend on the processing

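Of the log2 ratios of the listed genes, 812 stayed in their direction and on their side of the threshold under an alternative, 22 passed only there, 5 no longer passed, 27 changed sign and 2 untested ones moved beyond the limit set. The cause was not tested for any of them. The groups share replicate numbers, but the labels give no pairing. Of 24 same-number pairs 12 correlated above 0.1 (-0.0642 to 0.617, median 0.0949), and 11 of 16 libraries correlated best with their own number, a hint from the data and short of all pairs, so the block stayed an alternative. With the replicate block, 35 pathway genes instead of 23 were called for p53 KO against WT under vehicle, 4 listed genes instead of 2 under GCN2iB, and for GCN2iB in p53 KO cells 2 listed genes instead of 1 and 35 pathway genes instead of 22. With length and GC trends removed, the counts were 36 pathway genes for p53 KO under vehicle, 4 listed genes for p53 KO under GCN2iB, 38 pathway genes for GCN2iB in WT and 35 in p53 KO cells. For GCN2iB in p53 KO cells 2 listed genes were also called with DESeq2, with library totals and with the filter at 50 counts. Leaving out 1 library gave 2 to 4 listed genes for p53 KO under GCN2iB, 1 to 3 for GCN2iB in WT cells and 1 to 2 in p53 KO cells, and 15 to 31 pathway genes for GCN2iB in WT cells. The interaction called 1 gene of all, and 2 with DESeq2 size factors, 4 with library totals, 47 with no filter, 6 with the filter at 50 counts, 38 with the DESeq2 test, 61 with the replicate block, 8 with the 12 libraries, 13 with trends removed and 1 to 34 without single libraries.

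All sign changes were of ratios near 0 that did not pass. IRS1 for p53 KO against WT was -0.0593 under vehicle with the 12 libraries and -0.0579 to 0.0985 without single libraries. Under GCN2iB it was -0.0015 with DESeq2 size factors, -0.0063 with no filter, -0.0013 with the DESeq2 test, -0.0042 with only the compared groups and -0.0759 to 0.0893 without single libraries. For GCN2iB in p53 KO cells library totals gave -0.0127 for IGFBP3 and -0.0284 for IRS2, and leaving out single libraries gave -0.0152 to 0.0854 for IRS2 and -0.0079 to 0.2397 for IGFBP5. The IRS1 interaction was 0.0625 with the 12 libraries, 0.0159 with trends removed and -0.1043 to 0.0564 without single libraries. Depth limits IGFBP4 and IGFBP6, with at most 35 reads per group.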
